A study of Mus musculus with 24 samples.

Results

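The set comprised 10 genes that mark the segments of the kidney tubule or its injury: Slc34a1, Slc5a2, Lrp2, Cubn, Aqp1, Umod, Slc12a1, Slc12a3, Aqp2 and Havcr1. They were chosen by symbol. The array annotation gave a probe for 9 of them, with 17 probes in all, out of 25697 probes and 16593 genes on the arrays, and Cubn was not analysed here. Where a gene had more than 1 probe, which held for 4 genes, the probe with the highest mean over all 24 arrays was used, and the other probes are given beside it.

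Illumina bead arrays read total RNA of kidney, liver, aorta and gonadal adipose tissue from WT and Glo1+/- mice, with 3 arrays per group of genotype and tissue, 8 groups in all. All mice were labelled as C57BL/6J, female and 36 weeks of age, and were fed standard chow. The Glo1+/- animals were heterozygous knockouts of Glo1, which encodes glyoxalase 1, an enzyme that removes methylglyoxal. Their line had been re-derived by implanting embryos into a WT female. Tissue was flash frozen and each array read bulk RNA, so fewer cells of a type and less RNA per cell cannot be told apart. The labels give 3 mice per group but do not tie an array to an animal, and p-values measure the spread between these arrays.

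Values are on a log2 scale with a floor near 8, and array medians lay between 8.22 and 8.25. Glo1 in kidney fell from 12.51, 12.62 and 12.45 in WT arrays 1 to 3 to 11.56, 11.31 and 12.06 in Glo1+/- arrays 1 to 3, a difference of -0.88 ± 0.15 (limma, SE, adjusted p = 0.0223, or 0.206 with slide as a block and 0.037 within slide 2). In adipose tissue Glo1 read 12.29, 12.30 and 12.004 for WT, and 11.55, 10.92 and 11.43 for Glo1+/- (-0.90 ± 0.18, limma adjusted p = 0.239), without overlap and without passing the test. Against the label of female mice, both Xist probes lay at 8.03 to 8.25 on all arrays and Y-linked Eif2s3y read 10.33 to 11.28. In aorta, Glo1 on the arrays labelled 3 lay nearer the other genotype, at 11.22 for WT and 11.90 for Glo1+/-. The array labelled Glo1+/- aorta 3 also stood apart in cell makeup, with a mean of 8.79 over 5 brown adipocyte genes against 12.83 to 13.28 on the other aorta arrays. Its mean over 7 adipocyte genes was 12.67, against 12.58 to 12.88 on adipose arrays and 11.59 to 11.75 on the other aorta arrays. Over 4 smooth muscle genes it was 9.82, against 9.67 to 10.10 and 10.86 to 11.45. By these 2 lists it read like adipose tissue. It was kept under its aorta label throughout, and its part in the aorta values was not tested. The 3 WT kidney arrays and Glo1+/- kidney 1 shared slide 2, while Glo1+/- kidney 2 and 3 lay on slide 3 with the aorta arrays.

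The nephron filters blood in the glomerulus and then returns most of the filtrate through a chain of specialised tubule segments, each with its own transporters. The proximal tubule takes back phosphate, glucose and filtered protein. The thick ascending limb and the distal convoluted tubule recover salt, and the collecting duct adjusts water. Injured proximal tubule cells lose transporters and switch on Havcr1, also called kidney injury molecule 1, which is why these genes are read together in kidney studies.

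Promoter windows were matched for 9 of the 10 symbols, 11 windows in all (RefSeq, assembly GRCm38.p6). The 250 bases before each start site were searched on both strands for GTTAAT, the core of the sequence bound by HNF1 factors, which are made in tubule cells. The word occurred in 3 of the 11 windows, against 6.43% of 32851 mouse promoters. These 3 are shown because they hold the word, and because Slc34a1 and Umod carry the adipose result described below and Havcr1 is the injury marker. Each is written 5′ to 3′ on the gene's strand, and capitals mark the word, read on either strand.
Slc34a1: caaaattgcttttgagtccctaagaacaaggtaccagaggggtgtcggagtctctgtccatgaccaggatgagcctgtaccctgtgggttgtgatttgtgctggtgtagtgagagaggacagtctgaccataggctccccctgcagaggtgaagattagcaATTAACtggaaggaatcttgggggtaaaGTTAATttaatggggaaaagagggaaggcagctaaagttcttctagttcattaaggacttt
Umod: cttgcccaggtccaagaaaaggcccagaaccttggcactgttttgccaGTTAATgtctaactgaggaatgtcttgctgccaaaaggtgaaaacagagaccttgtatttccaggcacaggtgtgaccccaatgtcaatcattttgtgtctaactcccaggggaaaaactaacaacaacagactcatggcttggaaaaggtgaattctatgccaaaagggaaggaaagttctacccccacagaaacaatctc
Havcr1: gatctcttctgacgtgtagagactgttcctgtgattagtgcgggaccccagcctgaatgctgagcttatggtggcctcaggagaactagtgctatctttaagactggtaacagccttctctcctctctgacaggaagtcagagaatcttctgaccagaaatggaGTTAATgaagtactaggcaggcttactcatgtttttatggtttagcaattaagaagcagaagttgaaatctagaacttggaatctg
The Slc34a1 window, chr13:55399398-55399647 on the plus strand, held 2 matches, which began 89 and 61 bases before the start site. Among all promoters 0.441% held 2 or more. The Umod window, chr7:119479263-119479512 on the minus strand, held 1 match that began 202 bases before the start. The Havcr1 window, chr11:46750261-46750510 on the plus strand, held 1 match that began 86 bases before the start, and other Havcr1 start sites had none. A match is a description of these letters and says nothing of binding in these mice.

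In kidney, most segment markers were bright, and they showed no difference between genotypes that passed the test. None of the 9 genes was called (limma, adjusted p from 0.659 to 0.959). Of the 9, 0 had an unadjusted p under 0.05, which 2452 of 25697 probes had, so this count says little. Over all probes 98 of 25697 were called in kidney, which is 0.381%, so a count of 0 in 9 genes lies near the background. Differences had a positive sign in 6 genes and a negative sign in 3, with a median of 0.035, and the median over all probes was 5.7e-05. The WT and Glo1+/- arrays overlapped for every one of the 9 genes, while 15.4% of all probes had groups that did not overlap.

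**Figure D1:**
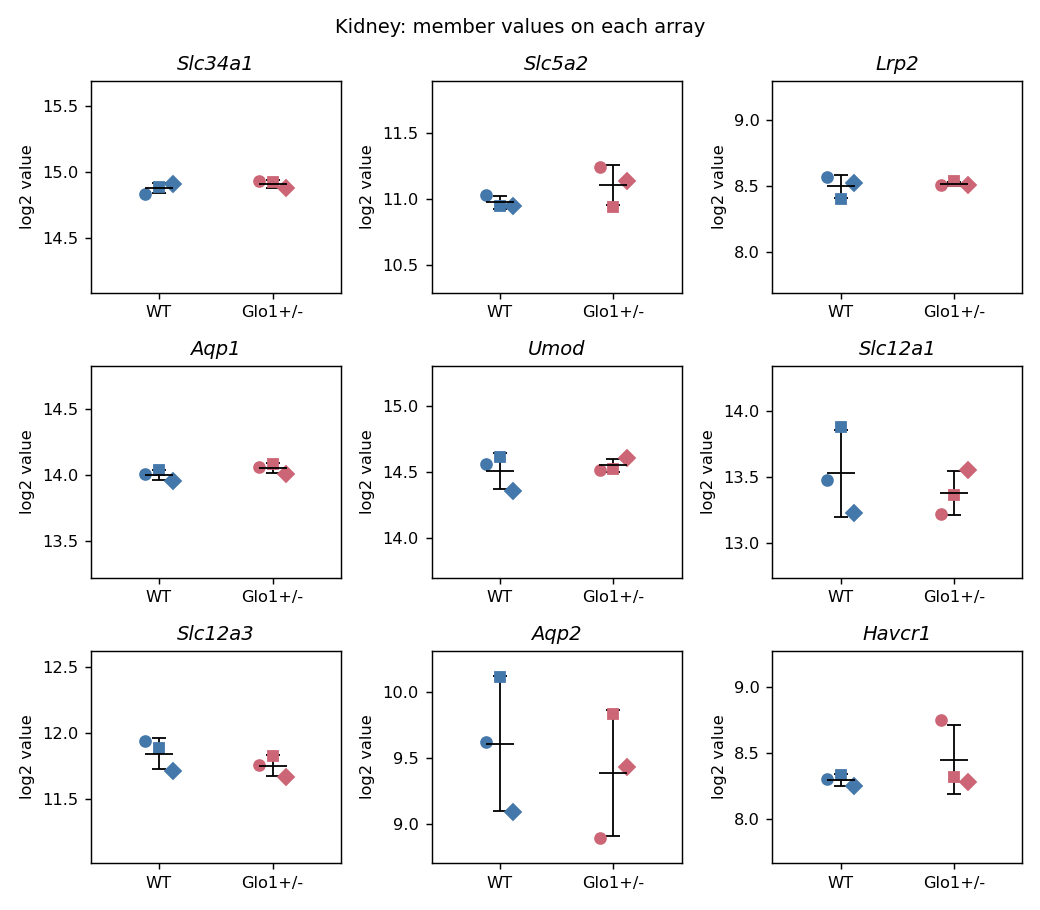
Log2 value of each of the 9 genes in kidney, 1 panel per gene with its own y range, for WT and Glo1+/- arrays. Circles, squares and diamonds are replicates 1, 2 and 3 and bars are the mean ± SD; the groups overlap in every panel, and Havcr1 has 1 high array, Glo1+/- kidney 1 at 8.75.

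The proximal tubule was represented by 4 measured genes. Slc34a1, the sodium phosphate cotransporter of the brush border, read 14.83, 14.89 and 14.91 in WT and 14.93, 14.93 and 14.88 in Glo1+/-. Its 6 arrays lay close together near the top of the scale, which ended at 15.38, and the difference was 0.035 ± 0.049 (SE, limma adjusted p = 0.870, 95% interval -0.070 to 0.14). Slc5a2, the main glucose transporter of the early proximal tubule, read 11.03, 10.95 and 10.95 in WT and 11.25, 10.94 and 11.14 in Glo1+/-. Glo1+/- kidney 1 was highest and Glo1+/- kidney 2 lowest, and the groups overlapped (0.13 ± 0.098, limma adjusted p = 0.714, interval -0.077 to 0.34).

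Lrp2 encodes megalin, the receptor that takes up filtered protein together with cubilin. Its probe was dim in kidney, at 8.57, 8.40 and 8.52 in WT and 8.51, 8.54 and 8.51 in Glo1+/-. A change of so dim a probe could be understated (0.017 ± 0.064, limma adjusted p = 0.959, interval -0.12 to 0.16). Aqp1, the water channel of the proximal tubule and thin descending limb, read 14.004, 14.04 and 13.96 in WT and 14.06, 14.08 and 14.01 in Glo1+/-. All 6 arrays lay close together (0.052 ± 0.059, limma adjusted p = 0.828, interval -0.074 to 0.18), and its other 2 probes gave 0.050 and 0.0093.

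The thick ascending limb was read by 2 genes. Umod encodes uromodulin, the most abundant protein of normal urine, and read 14.56, 14.62 and 14.36 in WT and 14.52, 14.53 and 14.61 in Glo1+/-. WT kidney 3 was lowest and WT kidney 2 highest (0.040 ± 0.068, limma adjusted p = 0.901, interval -0.11 to 0.19), and its other probe had the opposite sign, -0.094 ± 0.081. Slc12a1, the loop diuretic-sensitive cotransporter of sodium, potassium and chloride, read 13.48, 13.88 and 13.22 in WT and 13.22, 13.36 and 13.55 in Glo1+/-. WT kidney 2 stood above the other arrays (-0.15 ± 0.13, limma adjusted p = 0.769, interval -0.43 to 0.14). Of its other probes, 2 gave -0.059 and -0.019, and the last, at 8.29 to 8.46 and thus near the floor, gave 0.024.

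Further along, Slc12a3, the thiazide-sensitive sodium chloride cotransporter of the distal convoluted tubule, read 11.94, 11.88 and 11.71 in WT and 11.75, 11.83 and 11.67 in Glo1+/-. The groups overlapped (-0.093 ± 0.092, limma adjusted p = 0.796, interval -0.29 to 0.10). Its second probe read 13.12, 13.17 and 13.19 in WT and 13.25, 13.15 and 12.57 in Glo1+/- (-0.17 ± 0.14), with Glo1+/- kidney 3 apart from the others. Its last probe gave the opposite sign, 0.22 ± 0.11 (limma adjusted p = 0.542), so the 3 probes did not share a direction.

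Aqp2, the vasopressin-regulated water channel of the collecting duct principal cell, read 9.62, 10.12 and 9.10 in WT and 8.90, 9.84 and 9.43 in Glo1+/-. It had the widest spread of the 9 genes in kidney, with WT kidney 2 and Glo1+/- kidney 2 highest (-0.22 ± 0.23, limma adjusted p = 0.813). The 95% interval of the difference ran from -0.72 to 0.28. Uroplakin genes of the urothelium, which lines the renal pelvis, also varied between arrays. Upk1b read 8.05, 9.29 and 8.23 in WT and 8.10, 9.12 and 8.95 in Glo1+/-, and Upk2 read 8.09, 9.20 and 8.09 against 8.12, 8.82 and 8.88. WT kidney 2 and Glo1+/- kidney 2 and 3 were the bright arrays for both, and the part of urothelium in the Aqp2 values was not tested.

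Havcr1, the injury marker, lay close to the floor in kidney at 8.30, 8.33 and 8.25 in WT and 8.75, 8.32 and 8.28 in Glo1+/-. Only Glo1+/- kidney 1 stood apart, and the groups overlapped (0.15 ± 0.097, limma adjusted p = 0.659, interval -0.056 to 0.36). Without that array the difference was 0.0034 (limma adjusted p = 0.991). With slide as a block, which sets Glo1+/- kidney 1 against the WT arrays of its slide, it was 0.45 and missed the threshold (limma adjusted p = 0.0587).

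The genes most like Havcr1 over the 24 arrays were Svopl (Pearson r = 0.838), Slc19a3 (r = 0.816) and Ascl3 (r = 0.806), all of them dim outside kidney. In kidney Svopl read 8.52, 8.55 and 8.56 in WT and 9.16, 8.86 and 8.57 in Glo1+/-. Glo1+/- kidney 1 was the highest array for Svopl, Slc19a3 (8.71) and Ascl3 (8.35), which follows in part from choosing them by likeness over arrays that include it. These correlations rest on arrays that differ by tissue and carry no p.

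The markers were then checked against their tissue by setting WT kidney against WT liver, a comparison that shares the WT kidney arrays with the genotype comparison. In it 8 of the 9 genes were higher in kidney (limma, adjusted p under 0.05), where 15% of all probes were called higher. In the same 8 genes the arrays did not overlap, which held for 20.4% of all probes in this direction. Slc34a1 was higher by 6.73 ± 0.10, Umod by 6.38 ± 0.11 and Slc12a1 by 5.42 ± 0.15 on the log2 scale. Slc5a2 was higher by 2.87 ± 0.090, Aqp1 by 1.61 ± 0.11 and Aqp2 by 1.45 ± 0.19.

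Slc12a3 was higher by 1.79 ± 0.11 with the probe used and by 5.05 with its second probe. The probe used read 9.56 to 10.06 in adipose tissue, 9.93 to 10.24 in liver and 9.86 to 10.41 in aorta, where the second probe stayed at 8.06 to 8.19 in liver and 8.07 to 8.16 in aorta. Lrp2 was higher by 0.34 ± 0.066 (limma adjusted p = 0.0014), which no longer passed within slide 2 (0.26, limma adjusted p = 0.0513). Havcr1 was not called (0.096 ± 0.050, limma adjusted p = 0.203).

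Over the 4 tissues kidney ranked first for all 9 genes. For 7 of them the kidney arrays did not overlap those of the next tissue, with Aqp1 and Havcr1 as the exceptions. The share of all probes with this order was not taken, so these counts only describe the genes. Aqp1, which endothelium and red cells also make, read 13.96 to 14.08 in kidney, 13.58 to 13.99 in adipose tissue, 13.20 to 14.05 in aorta and 11.81 to 12.65 in liver, and only liver stood apart from its neighbour. The highest aorta value came from the array labelled Glo1+/- aorta 3, and the other 5 read 13.20 to 13.35, below every adipose array. Havcr1 read 8.25 to 8.75 in kidney, 8.13 to 8.28 in liver, 8.15 to 8.25 in aorta and 8.11 to 8.18 in adipose tissue, and every neighbouring pair overlapped. Among the other tissues, no neighbours in the order differed beyond their spread for the 7 genes that kidney separated.

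**Figure D2:**
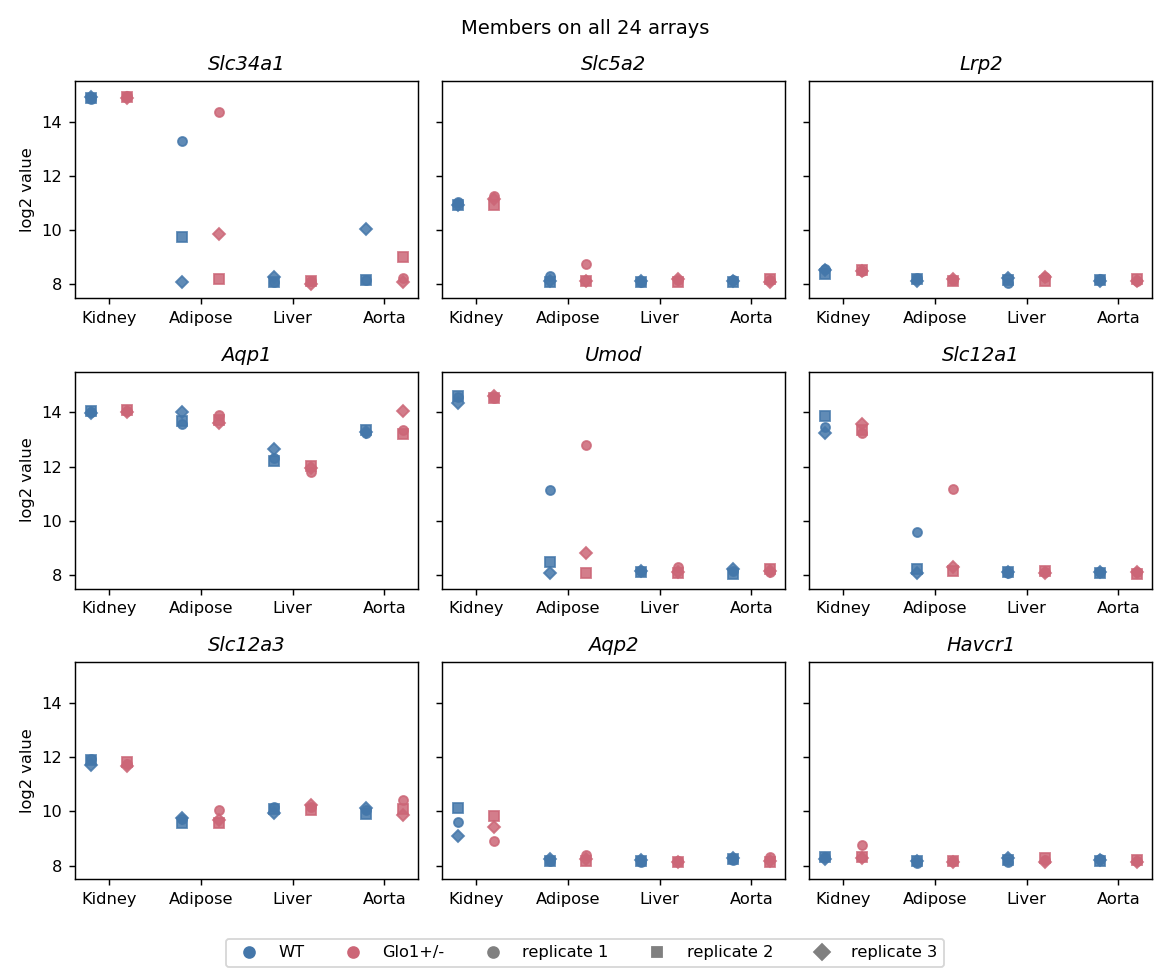
Log2 value of the 9 genes on all 24 arrays, by tissue and genotype. Kidney arrays are highest for 7 genes without overlap, Aqp1 is bright in every tissue, and 2 adipose arrays carry Slc34a1 at 13.29 and 14.36.

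Adipose tissue held the other main feature of these genes: the arrays numbered 1 of both genotypes carried tubule transcripts. Slc34a1 read 13.29, 9.75 and 8.08 in WT adipose and 14.36, 8.22 and 9.84 in Glo1+/- adipose, where liver lay at 8.004 to 8.26. The array numbered 1 was highest in both genotypes, and WT adipose 2 and Glo1+/- adipose 3 lay between it and the floor. Umod read 11.12, 8.48 and 8.08 in WT and 12.81, 8.08 and 8.81 in Glo1+/-. Slc12a1 read 9.60, 8.22 and 8.06 in WT and 11.19, 8.14 and 8.29 in Glo1+/-. For both thick limb genes, too, the arrays numbered 1 were highest in each genotype.

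The second probe of Slc12a3 read 9.07, 8.19 and 8.10 in WT adipose and 10.48, 8.08 and 8.14 in Glo1+/- adipose. Slc5a2 read 8.32, 8.09 and 8.12 in WT and 8.75, 8.15 and 8.14 in Glo1+/-, again highest on the arrays numbered 1. Aqp2 read 8.16, 8.17 and 8.24 in WT and 8.38, 8.16 and 8.25 in Glo1+/-. Of the arrays numbered 1, only the Glo1+/- array lay above the others. Lrp2 and Havcr1 stayed at the floor on all adipose arrays, at 8.12 to 8.23 and 8.11 to 8.18, and both were dim in kidney itself. Aqp1 was bright on every adipose array, at 13.58, 13.69 and 13.99 in WT and 13.91, 13.70 and 13.61 in Glo1+/-.

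To put the genes on one footing, each adipose value was written as a percent of the mean WT kidney signal of the same probe, both on the linear scale and both above that probe's floor, taken as its lowest value over the liver and aorta arrays. On Glo1+/- adipose 1 Slc34a1 reached 69.7% of kidney, Umod 29.9%, Slc12a1 18.0%, Slc12a3 13.1% by its second probe, Aqp2 11.2% and Slc5a2 9.27%. On WT adipose 1 the same genes reached 32.7%, 8.50%, 4.46%, 3.06%, 1.51% and 2.89%. Every gene was higher on the Glo1+/- array, and Slc34a1 and Umod had the highest percents on both. Slc34a1 lay near the top of the scale in kidney, and whether its signal was compressed there was not tested.

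The median percent over these 6 genes was 3.68 on WT adipose 1, 0.369 on WT adipose 2 and 0.046 on WT adipose 3. On the Glo1+/- adipose arrays 1, 2 and 3 it was 14.6, 0.160 and 0.770. Both arrays numbered 1 lay above the other 4. These 6 genes leave out Aqp1, which was lowest on WT adipose 1 and highest on Glo1+/- adipose 1 within its genotype. The Slc12a3 probe used elsewhere read 9.71, 9.56 and 9.77 in WT adipose and 10.06, 9.58 and 9.67 in Glo1+/- adipose. By that probe WT adipose 1 was not the highest WT array. Lrp2 and Havcr1 had no percent, since their WT kidney mean lay less than 1 log2 unit above the floor. Of Slc34a1, Umod and Slc12a1, only Slc34a1 exceeded 1% on further adipose arrays, with 2.02% on WT adipose 2 and 2.22% on Glo1+/- adipose 3. Aqp2 gave little contrast, since it reached 4.75% on WT adipose 3, 5.27% on Glo1+/- adipose 3 and up to 8.97% on an aorta array.

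**Figure D3:**
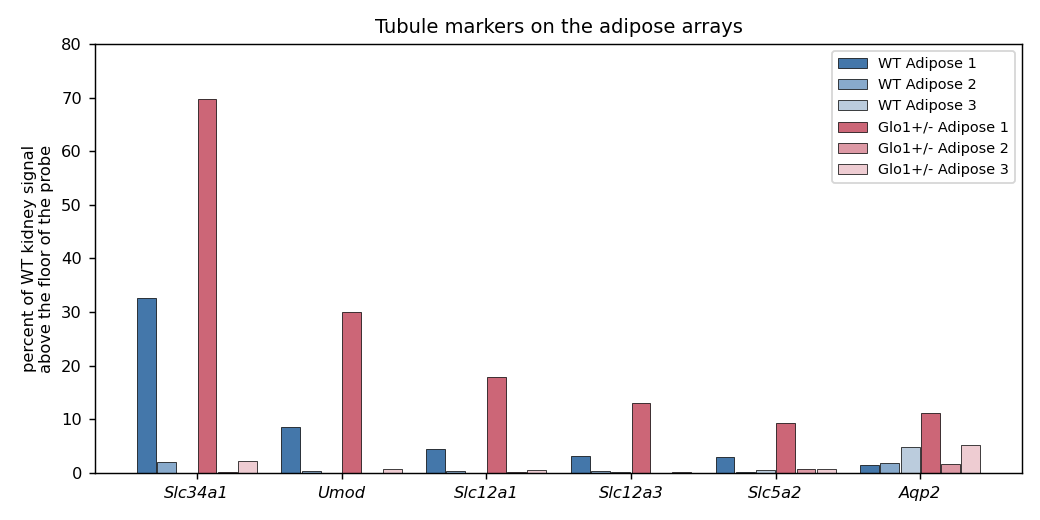
Percent of the WT kidney signal above the floor on each adipose array, for the kidney genes shown, on the linear scale of the values; Slc12a3 is drawn with its second probe. For every gene drawn but Aqp2 both arrays numbered 1 are highest, Slc34a1 reaching 32.7% on the WT array and 69.7% on the Glo1+/- array. Aqp1 and the Slc12a3 probe used elsewhere, which lack this order in WT, are not drawn.

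The same percent was taken for 66 other genes of tubule and podocyte lists. They were called higher in WT kidney than in WT liver, with a WT kidney mean more than 1 log2 unit above their floor. Their median was 5.20%, 1.85% and 1.23% on the WT adipose arrays and 15.97%, 1.71% and 3.06% on the Glo1+/- adipose arrays. The 14 genes of the early proximal tubule segments had medians of 6.05% on WT adipose 1 and 19.3% on Glo1+/- adipose 1, and the 10 genes of the thick ascending limb had 4.46% and 14.6%. Collecting duct genes had 3.71% and 8.74% over 10 principal cell genes and 4.65% and 9.22% over 8 intercalated cell genes. The 5 genes of the late proximal tubule had 5.12% and 12.98%, and in these 5 lists both arrays numbered 1 lay above the other 4. For the intercalated cell genes, though, the median reached 5.78% on WT aorta 2, above that of WT adipose 1. The only thin limb gene, Cldn4, had 2.34% and 11.9%, but 67.3% on Glo1+/- adipose 3. The 3 partners of megalin and cubilin had medians of 26.6% to 44.4% on all 6 adipose arrays. The lowest of the 3, though, was 4.32% on WT adipose 1 and 17.0% on Glo1+/- adipose 1, and at most 0.57% on the other 4. The 11 genes of the distal convoluted and connecting tubule gave 12.6% and 16.7%, but 5.60% to 13.3% on the other 4 adipose arrays. The 4 podocyte genes had a median of 72.9% or more on all 6 adipose arrays and did not set the arrays numbered 1 apart.

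The genes that followed Slc34a1 most closely over the 24 arrays were Spink1 (Pearson r = 0.999), Kap (r = 0.998) and Klk1 (r = 0.988). Those closest to Umod were Klk1b5, Miox and Hsd3b4, each at r = 0.999. Kap, the androgen-regulated protein of the mouse proximal tubule, read 12.89, 9.41 and 8.05 in WT adipose and 13.78, 8.15 and 9.67 in Glo1+/- adipose. Miox, the myo-inositol oxygenase of the proximal tubule, read 11.43, 8.73 and 8.14 in WT and 12.95, 8.12 and 8.62 in Glo1+/-. Both were chosen by likeness over these same arrays, so their array order adds no separate evidence, and all these correlations are set by the contrast of tissues that the arrays share.

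The genotype comparison in adipose tissue had wide errors for the tubule genes. None of the 9 genes was called, where 1 of 25697 probes was, or 0.00389%. The difference in Slc34a1 was 0.44 ± 1.70 (SE, limma adjusted p = 0.946), in Umod 0.67 ± 1.24 (limma adjusted p = 0.873) and in Slc12a1 0.58 ± 0.79 (limma adjusted p = 0.818). Without both arrays numbered 1 the same differences were 0.12, 0.16 and 0.079. Adipose arrays of the same number deviated together, and with the number as a block 49 probes were called and still none of the 9 genes.

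Other tissues were also read on some adipose arrays. The mean of 12 hepatocyte genes was 12.25, 12.03 and 10.35 in WT adipose and 11.03, 10.11 and 9.25 in Glo1+/- adipose. The mean of 9 epididymis genes was 10.98 on Glo1+/- adipose 3 and 8.12 to 8.38 on the other 5 arrays. Within each genotype the hepatocyte mean was highest on the array numbered 1, as were the values of Slc34a1, Umod and Slc12a1. WT adipose 2 was bright for hepatocyte genes as well, above Glo1+/- adipose 1. The part of these transcripts in the adipose comparison was not tested.

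Slc34a1 also stood above the floor on 2 aorta arrays, at 10.03 on the array labelled WT aorta 3 and 9.01 on Glo1+/- aorta 2, against 8.11 to 8.23 on the other 4. These are 2.64% and 0.87% of the WT kidney signal. Spink1 read 9.70 and 8.77 and Kap 9.22 and 8.59 on the same arrays. The genotype difference of Slc34a1 in aorta was -0.34 (limma adjusted p = 0.951), and 0.28 without the array labelled WT aorta 3 (0.983), and none of the 9 genes was called there, where 0 of 25697 probes were called and 917 had an unadjusted p under 0.05.

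In liver none of the 9 genes was called, where 169 probes were, or 0.658%. Aqp1 was the one gene of the set whose liver groups did not overlap, where 17.6% of all probes did not. It read 12.32, 12.21 and 12.65 in WT and 11.81, 12.02 and 11.94 in Glo1+/-, a difference of -0.47 ± 0.12 (limma adjusted p = 0.110), and its other probes gave -0.50 and -0.34. With slide as a block the difference was -0.73 (limma adjusted p = 0.0022), a fit in which a single WT array shares a slide with Glo1+/- liver. The mean of 8 endothelial genes lay at 9.45 to 9.73 in WT liver and 9.21 to 9.29 in Glo1+/- liver, and its part in the Aqp1 values was not tested. The genotype effect of Aqp1 in kidney minus that in liver was 0.52 ± 0.14 and did not pass (limma adjusted p = 0.243), where 0.0856% of probes did.

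Around these markers, 149 other genes of 11 lists were read in kidney, for the tubule segments, the podocyte, injury with repair, and fibrosis. Of them 124 lay above the median probe of kidney, and 6 were called. Of these 3 were higher in Glo1+/-, as were 0.206% of all probes, and 3 were lower, as were 0.175%. Their median difference was -0.026. Among probes above the kidney median 0.763% were called. None of the 6 calls held with slide as a block, where 20 probes of the whole table were called, though the differences kept their directions there, from -0.76 for Slc8a1 to 1.15 for Pck1. Of 14 alternatives, including 6 that each left out 1 array, Itgb6 was called in 10, Slc8a1 in 9, Pck1 in 6, Slc22a8 in 3, and Slc4a1 and Plin2 in 2 each.

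**Figure D4:**
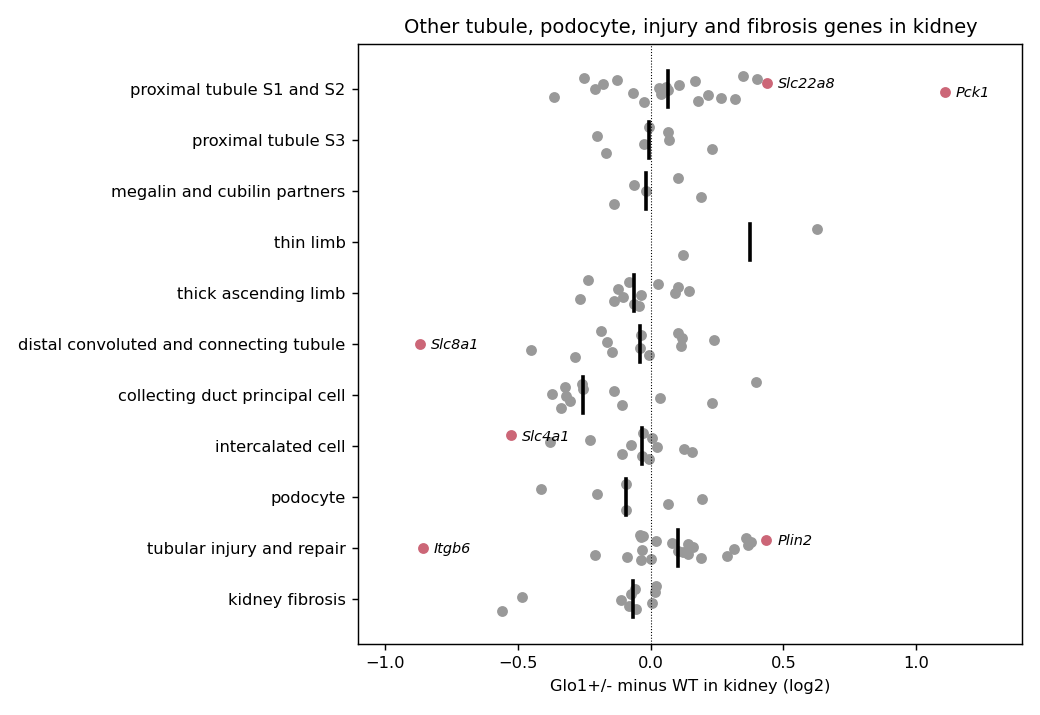
Log2 difference of Glo1+/- minus WT in kidney for each measured gene of the 11 lists, with the 6 called genes marked. Most genes lie near 0, with 9 of 12 principal cell genes and both thin limb genes on one side of it, and the called genes run from -0.87 for Slc8a1 to 1.11 for Pck1.

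In the early proximal tubule list 2 of 21 measured genes rose and none fell. Pck1, the gluconeogenic enzyme of the proximal tubule, read 8.68, 8.68 and 9.49 in WT and 10.10, 10.19 and 9.90 in Glo1+/-, without overlap. It rose by 1.11 ± 0.17 (limma adjusted p = 0.015, 0.206 with slide as a block). Slc22a8, the organic anion transporter of the basolateral side, read 9.31, 9.21 and 9.45 in WT and 9.80, 9.76 and 9.72 in Glo1+/- (0.44 ± 0.085, limma adjusted p = 0.049, 0.294 with slide as a block). The whole list had 14 positive and 7 negative differences with a median of 0.064. Among 7 genes of the late proximal tubule none was called, with Cyp7b1 at 0.23 and Slc22a7 at -0.20. Nor was any of 5 partners of megalin and cubilin, with the adaptor Dab2 at 0.19 and amnionless, Amn, at -0.14.

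In the thick ascending limb 0 of 13 measured genes were called, with 4 positive and 9 negative differences and a median of -0.062. Cldn16, a claudin of magnesium uptake, had -0.26 ± 0.090 and Sostdc1 had -0.24. The thin limb list held 2 measured genes. Slc14a2, the urea transporter of the inner medulla, read 8.24, 9.39 and 8.11 in WT and 8.10, 9.77 and 9.75 in Glo1+/-, with the same 3 bright arrays as the uroplakins. Its difference of 0.63 ± 0.38 turned to -0.48 with slide as a block, and Cldn4 had 0.12, which turned to -0.17.

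The distal convoluted and connecting tubule list had 1 of 13 measured genes called. Slc8a1, the sodium calcium exchanger, read 11.41, 11.19 and 11.46 in WT and 10.60, 10.70 and 10.17 in Glo1+/-, without overlap. It fell by 0.87 ± 0.13 (limma adjusted p = 0.014, 0.279 with slide as a block). Pvalb, which encodes the calcium buffer parvalbumin of the early distal convoluted tubule, was not called at -0.45 ± 0.12 (limma adjusted p = 0.179).

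Among 12 measured genes of the principal cell none was called, 3 were positive and 9 negative, and the median was -0.26. Sgk1, an aldosterone-induced kinase, had 0.40 ± 0.12 (limma adjusted p = 0.269) and the potassium channel subunit Kcne1 had -0.37 ± 0.097 (limma adjusted p = 0.185). Kcne1 passed in the fit of all 24 arrays (limma adjusted p = 0.0206), while the mean of its probes gave -0.13 (0.420). In the intercalated cell list 1 of 12 was called. Slc4a1, the anion exchanger of the acid-secreting cell and of red cells, read 11.55, 11.79 and 11.43 in WT and 11.005, 11.08 and 11.11 in Glo1+/- (-0.52 ± 0.10, limma adjusted p = 0.0495, 0.282 with slide as a block). Of the red cell genes, Alas2 read 9.58, 9.14 and 10.01 in WT and 9.59, 9.17 and 9.06 in Glo1+/-. Hba-a1 read 14.52, 14.45 and 14.62 in WT and 14.56, 14.04 and 14.09 in Glo1+/-. Both genes overlapped between genotypes, and their part in the Slc4a1 call was not tested. The ammonia channel gene Rhbg had -0.38 ± 0.10 without a call, and of 6 podocyte genes none was called, with Tcf21 at -0.41 and Ptpro at -0.20.

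Of 23 measured genes of injury and repair, 1 rose and 1 fell, and the list had 15 positive and 8 negative differences with a median of 0.10. Plin2, a coat protein of lipid droplets, read 9.42, 9.33 and 9.51 in WT and 9.91, 9.79 and 9.87 in Glo1+/- (0.44 ± 0.084, limma adjusted p = 0.048, 0.261 with slide as a block). Itgb6, an epithelial integrin subunit that activates TGF beta, read 13.02, 12.93 and 12.63 in WT and 12.12, 11.90 and 11.997 in Glo1+/-, without overlap. It fell by 0.86 ± 0.10 (limma adjusted p = 0.006, 0.112 with slide as a block). Of 10 measured fibrosis genes none was called, with 7 negative differences, among them Acta2 at -0.56 ± 0.20 and Dcn at -0.48.

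Some kidney arrays carried other tissues. Adipoq, the fat hormone adiponectin, read 8.11, 9.48 and 10.57 in WT kidney and 8.196, 8.66 and 8.11 in Glo1+/- kidney. Cox8b, a gene of brown fat and muscle, read 8.30, 10.85 and 8.99 against 8.23, 8.30 and 8.10. The hepatocyte gene Ahsg read 10.34 in WT kidney 1 and 8.16 to 8.27 on the other kidney arrays. These 3 transcripts were brightest on WT arrays. Of 7 adipocyte genes, Lpl was called and fell by 0.49 (limma adjusted p = 0.015, 0.041 with slide as a block), and it was called in 7 of 14 alternatives. It read 14.57, 14.52 and 14.48 in WT kidney and 13.90, 13.98 and 14.21 in Glo1+/- kidney, without overlap. All 4 adipocyte genes measured in kidney, Lpl among them, had negative differences, with a median of -0.54. So had all 4 measured brown adipocyte genes, with a median of -0.52. Of these genes only Lpl had groups that did not overlap. The part of fat in the Lpl values was not tested. Of 13 lists of other cells, the mean of 10 overlapped between genotypes in kidney. Macrophage genes were lower in Glo1+/- at 8.89 to 8.94 against 8.95 to 9.08, and adrenal genes were higher near the floor. The pancreas list was lower too, but Cela1 was the only 1 of its 4 genes measured in kidney. Cela1 read 12.08 to 12.58 in kidney and at most 11.25 in the other tissues. Their part in the kidney differences was not tested.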

How the data were processed

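The deposited table held 25697 probes on 24 arrays. Per the submitters' processing notes the authors made its log2 values with lumi 2.32.0, while its background correction, transformation and normalization are not given by the sources used. The values do not tell plain log2 from a variance-stabilised scale, so differences of dim probes can be understated. Precision is limited by having 3 arrays in a group. Platform annotation named 1 gene for 23978 probes and none for 1719, and 23962 probes matched the RefSeq gene table of GRCm38.p6.

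Each comparison was fitted across all probes with limma 3.58.1 in R 4.3.3 (lmFit, eBayes with a trend on the mean), 2-sided, with Benjamini-Hochberg adjustment over the whole table and a threshold of 0.05. Code was tested on simulated data. The smallest p of an exact test with 3 arrays a side is 0.1. A list gene counted as measured when its kidney mean exceeded the kidney median of all probes, 8.23. Beside the 9 genes, the text names every list gene called in kidney and the 2 largest differences of each list. Alternatives covered the trend, a filter on dim probes, quantile normalization, the mean over probes, a fit of all 24 arrays, the replicate number and the slide as blocks, and leaving out each array. Same-numbered adipose arrays of the 2 genotypes deviated together (correlations of 0.67, 0.17 and 0.34 across probes for numbers 1, 2 and 3). The highest correlations between arrays of unlike number were -0.29, 0.038 and 0.29 for the same numbers, so number 3 gave little contrast. Pairing by number entered only as an alternative, and the adipose errors and p-values given are unpaired unless a block is named. In kidney the same-number correlations were 0.065, 0.014 and -0.007, and no pairing was assumed. The genes and lists were chosen with earlier results of these data known.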

Additional observations from a re-analysis of the deposited data

Results flagged for a closer look

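For 3 of 31 genes examined, the Glo1+/- arrays of 1 tissue all lay on one side of WT and those of another tissue all on the opposite side, and the difference between tissues was not tested. Cldn16 had a Glo1+/- minus WT difference of -0.26 in kidney and 0.048 in aorta. Kcne1 had -0.37 in kidney and 0.065 in gonadal adipose tissue. Plin2 had 0.44 in kidney and -0.32 in gonadal adipose tissue. Among all probes, 0.689% opposed each other in this way in kidney and aorta and 1.22% in kidney and adipose tissue. Most of the 31 genes had been named for a large kidney difference, so their count is not comparable with these shares.

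For Itgb6 the difference itself was tested. Its genotype effect in kidney minus that in liver was -0.83 (limma, adjusted p = 0.034), where 22 of 25697 probes, or 0.0856%, were called. Itgb6 had been named for its kidney call, which did not hold with slide as a block. The same kidney arrays enter both tests, so this result is not separate evidence.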

How the results depend on the processing

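None of the 9 genes was called in kidney under any of 134 alternatives (limma adjusted p from 0.0587) or in adipose tissue under any of 122 (from 0.401). In kidney 98 probes were called. The count was 17 without the trend, 27 with the mean of a gene's probes, 20 in the fit of all 24 arrays, 20 with slide as a block and 10 within slide 2, and 19 to 108 without 1 array. With the replicate block it was 74. In adipose tissue 1 probe was called, against 0 with dim probes left out, 164 in the fit of all arrays, 49 with the replicate block, 0 without both arrays numbered 1, and 0 to 176 without 1 array. Pairing changed no call of the 9 genes. In liver the 169 calls became 4 without the trend, 41 with the mean of probes, 289 with the replicate block, 1379 with slide as a block, 1687 within slide 2, and 22 to 695 without 1 array. In aorta 0 became 18 in the fit of all arrays and stayed 0 without any 1 array. For WT kidney minus WT liver, leaving out 1 array gave 5958 to 7654 calls. For the kidney minus liver effect the 22 calls became 12 with the mean of probes, 37 with slide as a block and 4 to 233 without 1 array. There, with slide as a block, Aqp1 passed at 0.79 (limma adjusted p = 0.038) and Havcr1 at 0.52 (0.0449).

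Some small differences changed sign. In kidney Umod gave -0.027 with the mean of probes and -0.094 with its other probe, Slc12a1 0.024 with its dim probe, Slc12a3 0.22 with its last probe, Slc14a2 -0.48 and Cldn4 -0.17 with slide as a block and within slide 2. In adipose tissue, without the arrays numbered 1, Lrp2 gave 0.013, Slc12a3 -0.039 and Havcr1 -0.018. Aqp1 there gave 0.015 with the mean of probes, and 0.038 and 0.021 with its other probes. Without 1 array, the kidney differences ran from -0.031 to 0.052 for Lrp2, -0.037 to 0.093 for Umod, -0.30 to 0.028 for Slc12a1, -0.48 to 0.030 for Aqp2, -0.014 to 0.42 for Cyp7b1 and -0.15 to 0.32 for Cldn4. In adipose tissue they ran from -1.34 to 1.90 for Slc34a1, -0.78 to 1.62 for Umod, -0.41 to 1.11 for Slc12a1, -0.032 to 0.27 for Slc5a2, -0.050 to 0.0084 for Lrp2, -0.099 to 0.11 for Aqp1, -0.055 to 0.18 for Slc12a3 and -0.014 to 0.019 for Havcr1. They ran from -0.65 to 0.28 for Slc34a1 in aorta and from -0.0069 to 0.23 for Havcr1 in kidney minus liver. The cause was not tested. With each probe's floor taken over all 24 arrays, the median percent of kidney signal over 6 genes was 3.70 and 14.6 on the adipose arrays numbered 1, and 1.43 on Glo1+/- adipose 3. The alternative without both arrays numbered 1 and the use of each other probe were chosen after seeing the data.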

Other observations

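Genes of other cells were read in kidney beside the tubule genes. Cela1, an elastase on the pancreas list, was brighter in kidney than in the other tissues. It read 12.33, 12.52 and 12.58 in WT kidney and 12.13, 12.10 and 12.08 in Glo1+/- kidney, without overlap. The macrophage lysozyme Lyz2 read 9.69, 10.02 and 9.48 in WT kidney and 9.58, 9.36 and 9.25 in Glo1+/- kidney, with overlap. Emcn, an endothelial sialomucin, read 11.88, 12.11 and 12.04 in WT kidney and 11.86, 12.40 and 11.81 in Glo1+/- kidney, also with overlap. The epididymal genes Lcn8 and Gpx5 read 14.83 and 14.34 on Glo1+/- adipose 3, and between 8.08 and 8.37 on the other adipose arrays, all of which were labelled female.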
